A study of Mus musculus and Homo sapiens with 9 samples.

Results

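The genes examined here encode the eukaryotic translation initiation factors. They were taken as every protein-coding row whose symbol begins with EIF1 to EIF6 in the table of human counts, or Eif1 to Eif6 in the table of mouse counts. The rule gave 56 of 64252 rows in the human table and 55 of 43432 rows in the mouse table. Of these, 54 passed the filter on low counts in each table. EIF4E1B and EIF1AY did not pass in the human table, and Eif4e1b, with no read in any library, did not pass in the mouse table. The prefix also takes in genes that are not factors of the ribosome itself, namely the EIF2AK kinases, the 4E-binding proteins and EIF4A3, a helicase of the exon junction complex.

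Translation initiation brings the small ribosomal subunit, an initiator tRNA and an mRNA together. eIF2 carries the initiator tRNA and is recharged with GTP by eIF2B, and the EIF2AK kinases slow this step by phosphorylating eIF2 under stress. eIF4F, made of the cap-binding eIF4E, the scaffold eIF4G and the helicase eIF4A, loads the mRNA, and the 4E-binding proteins compete with eIF4G for eIF4E. eIF3, the factor with the most subunits, holds these pieces on the small subunit, and eIF5 and eIF5B complete the joining of the ribosome.

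J.gamma1 cells, a derivative of the T cell acute lymphoblastic leukemia line Jurkat, carried a lentiviral non-targeting short hairpin RNA (sh-NC, 2 libraries) or a hairpin against IRF2BP2 (sh-IRF2BP2, 2 libraries). Which of the study's hairpins was sequenced is not given in the sources used here. The mouse libraries came from CD3+ T cells sorted magnetically from spleen. The 2 knockout libraries were from Vav-iCre+/-;Irf2bp2fl/fl mice and the 3 control libraries from mice that the labels call wild type and the study calls Vav-iCre-/-;Irf2bp2fl/fl, so the controls also carry the floxed alleles. Vav-iCre acts throughout the blood lineage, so the deletion was not limited to T cells, and the age of the sequenced mice is not given in the labels. Nothing in the labels says that the human libraries came from separate cultures, so p-values measure the spread between these libraries, which may be technical. The question was which initiation factor transcripts differ when IRF2BP2, a transcriptional cofactor, is reduced in leukemia cells or absent from normal T cells.

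Total counts per library were between 26648204 and 31120236 in J.gamma1 cells and between 16668577 and 37177523 in mouse T cells, where control 3 was the shallowest. Levels are given as CPM, counts scaled to a common library size, and a count of 0 allowed up to 0.188 CPM in the shallowest library. IRF2BP2 was at 204 and 199 CPM with sh-NC and at 79.0 and 93.8 CPM with sh-IRF2BP2. Irf2bp2 had between 1915 and 4594 counts in the control libraries and 0 counts in both knockout libraries. All 10 T cell markers passed the filter in each table. In bulk libraries, fewer cells of a type and less RNA per cell cannot be told apart. In the mouse libraries the summed level of the erythroid marker genes was 616 to 2295 CPM in controls and 4835 to 6704 CPM in knockouts. Of the 15 tested markers, 9 were called higher, beside 2.68% of all genes tested. The 10 T cell markers together were at 4606 to 6099 CPM in controls and at 3632 to 3836 CPM in knockouts. Plasma cell markers summed to 414 to 1156 CPM in controls and 1142 to 1507 CPM in knockouts. B cell markers summed to 26.03 to 219.7 CPM in controls and 24.93 to 80.41 CPM in knockouts. Myeloid markers summed to 33.47 to 376.5 CPM in controls and 76.92 to 131.3 CPM in knockouts. Control 2 was the highest library for both. S phase genes moved in opposite directions in the tables. In sh-IRF2BP2 cells 7 of 42 were called lower, beside 5.01% of all genes tested. In knockout T cells 16 of 42 were called higher, beside 2.68% of all genes tested. The part of these other cells and of the S phase genes in the results given here was not tested.

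Levels between genes were compared as CPM per kilobase of a representative transcript. In the sh-NC libraries the most abundant member was EIF5A, an elongation factor that carries hypusine, at 558 ± 5.85 CPM per kb (SD, n = 2), next to the helicase EIF4A1 at 524 ± 10.9 CPM per kb. EIF4G2, also known as DAP5, a scaffold that lacks the eIF4E binding site, came next at 419 ± 48.7 CPM per kb. The ranges of EIF5A and EIF4A1 did not overlap, and EIF4G2 was below both. Among the members detected, EIF4EBP3 was lowest at 1.29 ± 0.0145 CPM per kb, followed upward by EIF2S3B at 1.52 ± 0.183 CPM per kb. In mouse control T cells the paralog Eif4a2 was at 396 ± 75.8 CPM per kb (SD, n = 3) and Eif1 at 355 ± 51.8 CPM per kb, with overlapping ranges. Eif4g2 has no per-kilobase level here, because its representative mouse transcript is a fragment of 742 bases.

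In J.gamma1 cells, 1 initiation factor gene was lower with sh-IRF2BP2 and none was higher. Without the library sh-NC 1 there were 4 lower (EIF3D, EIF2B3, EIF2D and EIF3F) and 1 higher (EIF4G2), and without sh-NC 2 there were 2 lower (EIF3D and EIF4EBP1). A gene was called where the Benjamini-Hochberg adjusted p, over the 15819 genes fitted with edgeR (quasi-likelihood), was under 0.05 and the size of its log2 fold change reached 0.5. The gene was EIF3D, which encodes a subunit of eIF3 that can itself bind the cap of some mRNAs. Over all genes tested, 5.01% were called lower and 5.46% higher, so that calls among the 54 tested members were fewer than the background share. Without sh-NC 1 or without sh-NC 2, calls over all genes also rose in both directions. At an unadjusted p under 0.05 there were 14 members lower and 4 higher, against background shares of 13.4% and 14.3%. The sh-IRF2BP2 libraries lay below both sh-NC libraries for 21 members and above both for 8 members, while 28.7% and 29.6% of all genes tested did so. The log2 fold change was below 0 for 33 members, where 49.4% of all genes tested were below 0. Its median was -0.083 over the members and 0.0067 over all genes tested.

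In mouse T cells, 0 of 54 tested initiation factor genes were called by edgeR, where 2.83% of all genes were called, 0.15% lower and 2.68% higher. DESeq2 also called 0 members. At an unadjusted p under 0.05 there were 2 members higher, Eif2ak1 and Eif5a2, and 0 lower, against background shares of 10.2% and 6.01%. The knockout libraries lay below all controls for 10 members and above all controls for 7, while 17.8% and 18.2% of all genes did so. Below 0 were 29 members and 52.1% of all genes tested, and the median over the members was -0.030.

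**Figure D1:**
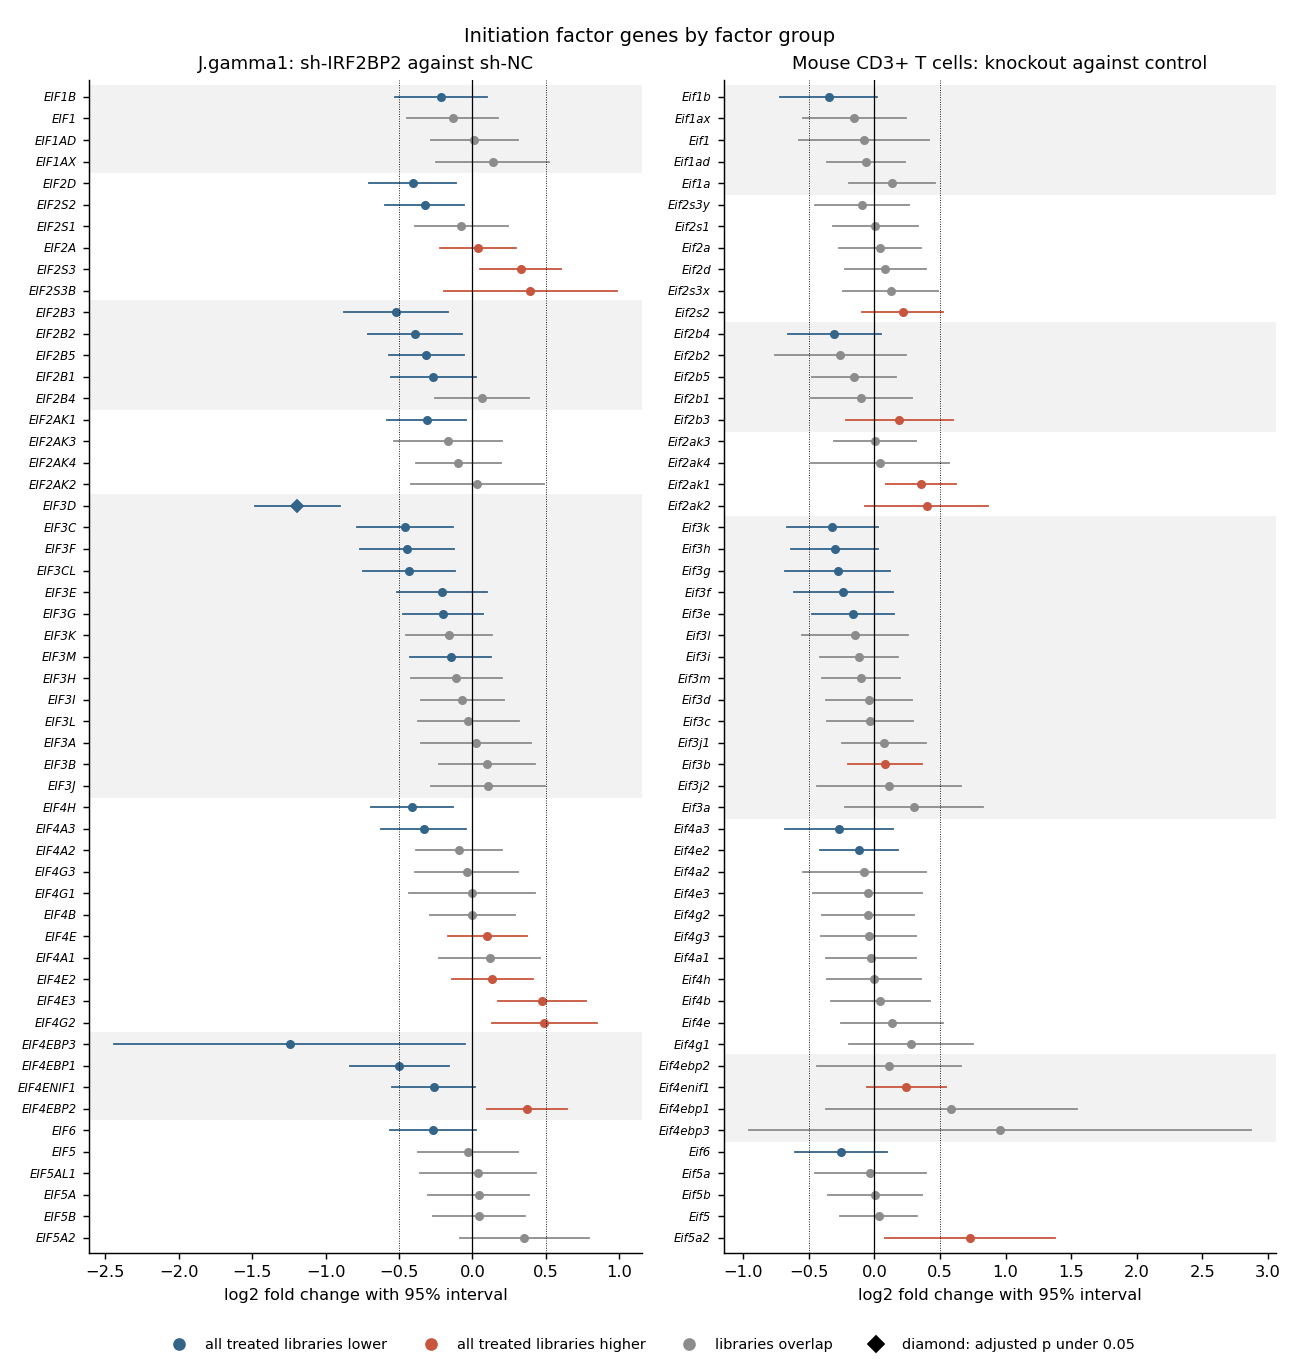
Log2 fold change (horizontal axis) of each tested initiation factor gene with its 95% interval, for sh-IRF2BP2 against sh-NC in J.gamma1 cells (left) and knockout against control in mouse CD3+ T cells (right). Shading separates factor groups, blue and red mark genes whose treated libraries all lay below or above the controls, gray marks overlap, dotted lines mark the threshold of 0.5, and EIF3D at -1.19 is the sole diamond (adjusted p under 0.05).

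The subunits of eIF3 were the group with the called gene. In J.gamma1 cells 11 of 14 eIF3 genes had a log2 fold change below 0, and the sh-IRF2BP2 libraries lay below both sh-NC libraries for 7 and above both for 0, where 28.7% and 29.6% of all genes tested did so. The 7 include EIF3C and EIF3CL, near-identical copies whose reads are nearly 1 measurement. The median over the group was -0.15, and -0.15 also without EIF3D. The mouse had 10 of 14 below 0, with a median of -0.11, and the knockout libraries lay below all controls for 5 genes and above for 1, beside 17.8% and 18.2% of all genes. None of the mouse eIF3 genes passed the test.

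EIF3D (ENSG00000100353, chr22:36510855-36529184, minus strand, hg38) was at 246 and 282 CPM with sh-NC and fell to 116 and 115 CPM with sh-IRF2BP2. The groups did not overlap, and the sh-IRF2BP2 libraries differed from each other by less than the sh-NC libraries did. The log2 fold change was -1.19 (SE 0.126, 95% interval -1.48 to -0.90), with an adjusted p of 0.00221 by edgeR with Benjamini-Hochberg adjustment. EIF3D also passed in all 15 alternative settings, where its log2 fold change lay between -1.29 and -1.09. The settings that change only the fold threshold reuse the main fit. Those with all rows or summed copies left its log2 fold change at -1.19.

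Mouse Eif3d did not follow. It was at 175, 212 and 180 CPM in the controls and at 188 and 180 CPM in the knockouts, and these ranges overlapped. The log2 fold change was -0.04 (95% interval -0.37 to 0.29), an interval that does not reach the fall seen in J.gamma1 cells, and the adjusted p was 0.927 (edgeR, Benjamini-Hochberg).

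EIF3D was also lower relative to the other subunits. Its level per kilobase was 1.26 and 1.31 times the median of the other eIF3 genes in the sh-NC libraries and 0.544 and 0.625 times that median in the sh-IRF2BP2 libraries. The mouse ratio was 0.857, 0.860 and 0.856 in controls and 0.924 and 0.853 in knockouts. The copies EIF3CL and Eif3j2 were left out of these medians. The ratios are descriptions, and no test was made of them.

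Of the 6 tested protein-coding genes nearest to EIF3D, 5 did not pass the test. FOXRED2, 3634 bases away, had a log2 fold change of 0.14, and TXN2, the gene of the mitochondrial thioredoxin at 29215 bases, had -0.0049. The exception was APOL1, an apolipoprotein gene 243325 bases away, which was higher with a log2 fold change of 1.11 (adjusted p = 0.0429, edgeR, Benjamini-Hochberg). Of the 1781 windows of 100 bases in the EIF3D transcript, 0 occur in an annotated transcript of another gene.

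**Figure D2:**
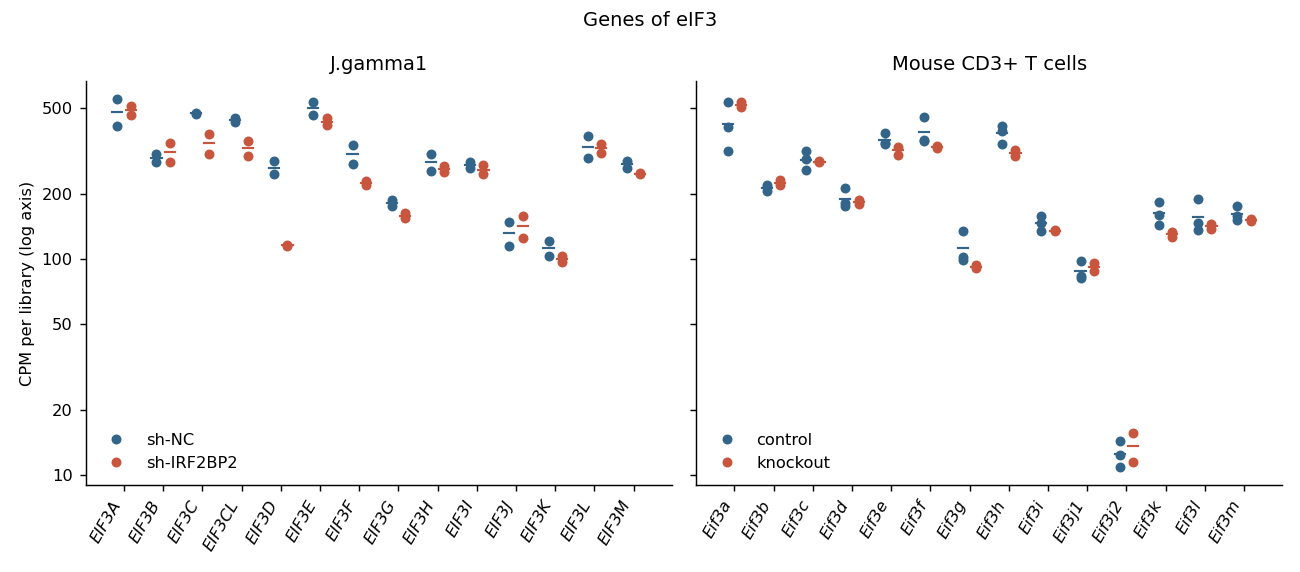
CPM of each eIF3 gene (log axis), with 1 point per library and a bar at the group mean, for J.gamma1 cells (left, sh-NC blue and sh-IRF2BP2 red) and mouse CD3+ T cells (right, control blue and knockout red). EIF3D at 116 and 115 CPM stands below its sh-NC libraries at 246 and 282 CPM, whereas the mouse Eif3d points overlap.

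After EIF3D, the largest falls within the group were those of EIF3C, EIF3F and EIF3CL, in that order. EIF3F was at 275.6 and 336.5 CPM with sh-NC and at 219.3 and 230.2 CPM with sh-IRF2BP2, without overlap. Its log2 fold change was -0.45 (adjusted p = 0.0794, edgeR, Benjamini-Hochberg). EIF3C and EIF3CL are copies of the subunit gene on chromosome 16. EIF3C was at 469 and 473 CPM with sh-NC and at 378 and 306 CPM with sh-IRF2BP2. The log2 fold changes of -0.46 for EIF3C and -0.43 for EIF3CL missed the threshold, with adjusted p of 0.0769 and 0.0802 (edgeR, Benjamini-Hochberg). As 97.0% of the 100-base windows of EIF3C occur in EIF3CL, the split of reads between the copies is uncertain. The copies summed gave a log2 fold change of -0.45. At the other end of the group, EIF3J, a loosely bound subunit, was at 148 and 115 CPM with sh-NC and at 158 and 125 CPM with sh-IRF2BP2, which overlapped.

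In the mouse the lowest and highest values were those of Eif3k (log2 fold change -0.32, 95% interval -0.67 to 0.025) and Eif3a, the core scaffold subunit (0.30, 95% interval -0.22 to 0.83). Eif3k was at 160, 184 and 144 CPM in controls and at 126 and 133 CPM in knockouts, with no overlap. Eif3a was at 409, 317 and 531 CPM in controls and at 502 and 530 CPM in knockouts, within the range of the controls. The human ortholog EIF3K had -0.16 and EIF3A had 0.024, both with overlapping libraries.

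The eIF3 genes also shared a feature of sequence that the choice of members did not use. Many mRNAs of the translation machinery begin with a 5′ terminal oligopyrimidine (TOP) tract, a C at the cap followed by a run of C or T, through which growth signals control their translation. At the annotated start of the canonical transcript (GENCODE 44, hg38), a C followed by at least 4 pyrimidines was found in 16 of 56 members (28.6%) and in 5.51% of 12665 tested protein-coding genes. Of these members, 10 were among the 14 eIF3 genes, 4 were in the EIF2 group and 2 in the EIF4 group. Windows of 30 bases around the start are printed for 6 eIF3 genes that have the tract, with the pyrimidine run from the start in capitals, as read from hg38. EIF3D and EIF3F have the longest runs of those shown, at 10 bases, and EIF3L the shortest, at 6.
EIF3D, chr22:36529152-36529181, minus strand: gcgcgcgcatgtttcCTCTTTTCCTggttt
EIF3F, chr11:7987322-7987351, plus strand: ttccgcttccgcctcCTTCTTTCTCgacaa
EIF3K, chr19:38619173-38619202, plus strand: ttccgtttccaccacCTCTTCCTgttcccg
EIF3C, chr16:28711449-28711478, plus strand: gcgaggacccgccttCTCTCTCggcgtttc
EIF3M, chr11:32583816-32583845, plus strand: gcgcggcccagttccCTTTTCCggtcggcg
EIF3L, chr22:37849404-37849433, plus strand: gccgctcatttcgctCTTTCCggcggtgct
The EIF3CL window on the minus strand has the same letters as that of EIF3C. The 16 members with it had log2 fold changes between -1.19 and 0.39, their median being -0.13, and among the 38 tested members without it the median was -0.054. Within eIF3 the median was -0.18 for the 10 genes with the tract (-1.19 to 0.024) and 0.014 for the 4 without it (-0.20 to 0.11). The 10 count EIF3C and EIF3CL separately, though their reads are nearly 1 measurement. The same split was not made over all genes. With RefSeq starts (GRCm38.p6), which matched 43 of 55 mouse members, the tract was found in 4.65% of the members and in 2.25% of genes, so the human share was not seen with that annotation. An annotated start can lie some bases from the start used in these cells, which were not mapped here.

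A second feature was the E-box CACGTG, the letters that MYC and related factors bind. It reads alike on both strands and was searched from 250 bases before to 50 bases after the start. It was present in 14 of 56 human members and in 10.4% of tested genes, and in 18.6% of mouse members and 10.1% of mouse genes. Of the 42 members with sequence in both species, 11 had the E-box in human and 7 had it in both. No such count was made over all genes. The windows of 3 such genes are shown with the E-box in capitals. In EIF3F it lies 68 bases before the start in both species. In EIF3A it lies 13 bases before the human start, but at base 23 from the annotated mouse start. In EIF4G1 the E-box shown lies 144 bases before the start in human and 54 in mouse.
EIF3F, human, chr11:7987257-7987286, plus strand: aaagctctagctCACGTGgtgtatattcag
Eif3f, mouse, chr7:108934335-108934364, plus strand: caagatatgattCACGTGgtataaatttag
EIF3A, human, chr10:119080813-119080842, minus strand: ccgcggggaggtCACGTGgctccttccttt
Eif3a, mouse, chr19:60790654-60790683, minus strand: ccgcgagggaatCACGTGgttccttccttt
EIF4G1, human, chr3:184314450-184314479, plus strand: ggctgtggctgtCACGTGacggggcggggg
Eif4g1, mouse, chr16:20672661-20672690, plus strand: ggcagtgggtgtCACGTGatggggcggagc
EIF3D has no E-box in its window. In J.gamma1 cells the median log2 fold change was -0.19 for members with the E-box and -0.072 for the others. Among the mouse members it was -0.016 with the E-box and -0.032 without it. The letters CCGGAAG, which ETS factors bind, were searched on both strands and found in 33.9% of human members and 19.2% of genes. Members with these letters had a median log2 fold change of -0.15 in J.gamma1 cells, and those without them -0.039. The mouse medians were -0.11 and 0.0069. The letters TGTGGT, bound by RUNX factors, were found in 5.36% of members and 8.94% of genes. These matches describe the sequence and say nothing of binding in these cells.

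**Figure D3:**
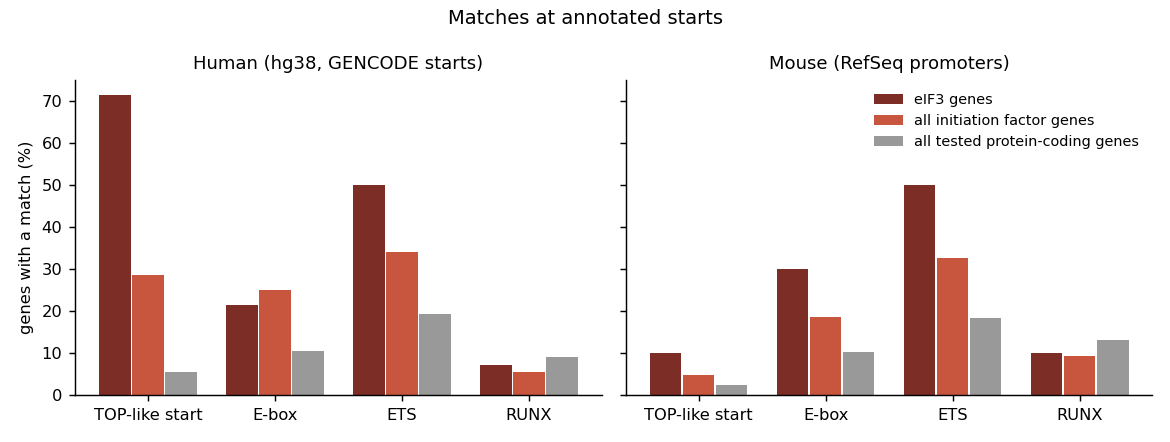
Share of genes (vertical axis, percent) with a TOP-like start, an E-box, the ETS letters or the RUNX letters, for the eIF3 genes, all initiation factor genes and all tested protein-coding genes in human (left) and mouse (right). The TOP-like start reaches 71.4% of the human eIF3 genes against 5.51% of all genes, and 1 of the 10 matched mouse eIF3 genes with RefSeq starts.

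The eIF2 group, which delivers the initiator tRNA, had 3 members below 0 and 3 above 0 in J.gamma1 cells, and 0 were called. EIF2D, which can deliver tRNA without GTP, was at 62.5 and 73.3 CPM with sh-NC and at 51.2 ± 1.75 CPM (SD, n = 2) with sh-IRF2BP2. The difference of -0.41 on the log2 scale missed the threshold (adjusted p = 0.0827, edgeR, Benjamini-Hochberg). EIF2S2, the beta subunit, was at 263 and 267 CPM with sh-NC and at 218 and 205 CPM with sh-IRF2BP2 (log2 fold change -0.33). EIF2S3, the gamma subunit, stood on the other side, at 206 and 189 CPM against 254 and 242 CPM (log2 fold change 0.33). The alpha subunit EIF2S1, the target of the kinases, overlapped between groups with a log2 fold change of -0.075. Thus the libraries did not overlap for the beta and gamma subunits, in opposite directions, with adjusted p of 0.119 and 0.124 by edgeR with Benjamini-Hochberg adjustment. The highest value of the group, 0.39, was that of EIF2S3B, a close relative of EIF2S3 at 3.67 to 5.36 CPM.

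Mouse Eif2s2 was at 109, 129 and 110 CPM in controls and at 134 and 137 CPM in knockouts. The groups did not overlap, but the log2 fold change of 0.22 had a 95% interval of -0.093 to 0.53. The gamma subunit has an X-linked and a Y-linked copy in the mouse. Eif2s3x was at 159, 136 and 180 CPM in controls and at 179 and 165 CPM in knockouts, and Eif2s3y at 112, 85.7 and 105 CPM against 98.4 and 90.2 CPM. Both overlapped between groups, and the Y-linked copy was present in all 5 libraries.

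For eIF2B, the exchange factor of eIF2, the sh-IRF2BP2 libraries lay below both sh-NC libraries for 4 of 5 subunits, beside 28.7% of all genes tested. The median over the subunits was -0.31 on the log2 scale, and 0 were called. EIF2B3, the gamma subunit, was at 22.9 and 24.3 CPM with sh-NC and at 17.4 and 15.5 CPM with sh-IRF2BP2. The log2 fold change of -0.52 (SE 0.154) passed the fold threshold but not the test (adjusted p = 0.0697, edgeR, Benjamini-Hochberg). EIF2B3 was called with DESeq2, with the replicate block (adjusted p = 0.0303, edgeR) and without the library sh-NC 1. EIF2B4 was the exception, at 38.8 and 39.1 CPM with sh-NC and 44.6 and 37.0 CPM with sh-IRF2BP2. Among the mouse subunits 4 of 5 were also below 0, with a median of -0.15, but other subunits lay at the ends. Eif2b4 was lowest (log2 fold change -0.31, no overlap) and Eif2b3 was highest (0.19, no overlap), and neither passed the test.

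The EIF2AK kinases sense different stresses, EIF2AK1 heme shortage, EIF2AK2 double-stranded RNA, EIF2AK3 unfolded protein and EIF2AK4 lack of amino acids. EIF2AK1 was at 275 and 275 CPM with sh-NC and at 219 and 224 CPM with sh-IRF2BP2. The groups were apart, but the log2 fold change of -0.31 did not pass (adjusted p = 0.127, edgeR, Benjamini-Hochberg). EIF2AK2 overlapped between groups, with a log2 fold change of 0.034, and with the upper-quartile scaling of -0.017.

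All 4 mouse kinases had values above 0, with a median of 0.20 and a range from 0.0038 for Eif2ak3 to 0.40 for Eif2ak2. The knockouts lay above all controls for 2 of the 4, beside 18.2% of all genes tested, and 2 overlapped. Eif2ak3, which overlapped, turned below 0 with some libraries left out. Eif2ak1 was at 81.5, 82.9 and 84.5 CPM in controls and at 102 and 110 CPM in knockouts, with no overlap. The log2 fold change was 0.36 (SE 0.112), with an unadjusted p of 0.0165 and an adjusted p of 0.188 by edgeR with Benjamini-Hochberg adjustment. Eif2ak2 was at 34.9, 23.0 and 28.9 CPM in controls and at 36.9 and 39.3 CPM in knockouts. The heme-sensing kinase thus stood apart in the libraries that held more erythroid RNA, and control 1, with 2295 CPM of erythroid markers, had 81.5 CPM of Eif2ak1. The part of the erythroid RNA in this difference was not tested.

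**Figure D4:**
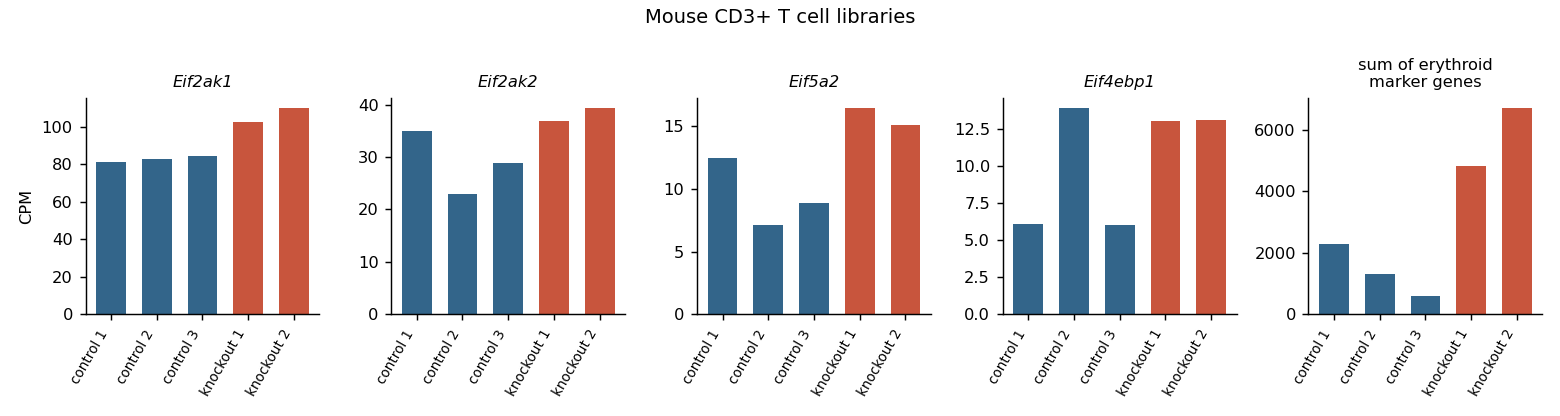
CPM (vertical axes from 0) of Eif2ak1, Eif2ak2, Eif5a2, Eif4ebp1 and the summed erythroid marker genes in each mouse library, with 3 controls in blue and 2 knockouts in red. Eif2ak1 is at 81.5 to 84.5 CPM in the controls and at 102 and 110 CPM in the knockouts, and the erythroid sum at 616 to 2295 CPM against 4835 and 6704 CPM.

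In the EIF4 group of J.gamma1 cells the median log2 fold change was 0.00056, with 5 of 11 tested genes below 0. EIF4G2 was at 1718 and 1457 CPM with sh-NC and at 2352 and 2104 CPM with sh-IRF2BP2. The groups did not overlap, and the log2 fold change of 0.49 was the highest of all tested members, with an adjusted p of 0.0838 (edgeR, Benjamini-Hochberg). EIF4G1, the main scaffold, was at 803 and 594 CPM with sh-NC and at 779 and 616 CPM with sh-IRF2BP2. Per kilobase, EIF4G2 was 3.05 and 3.49 times EIF4G1 with sh-NC and 4.30 and 4.87 times with sh-IRF2BP2. The corresponding mouse genes had values of -0.048 for Eif4g2 and 0.28 for Eif4g1, both with overlapping libraries.

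EIF4H, which stimulates the helicase, was the lowest of the group at 512 and 513 CPM with sh-NC and 391 and 379 CPM with sh-IRF2BP2. The difference was -0.41 on the log2 scale, with an adjusted p of 0.0671 (edgeR, Benjamini-Hochberg), whereas mouse Eif4h had -0.0040 and overlapping libraries. The cap-binding relative EIF4E3 was at 23.8 and 23.8 CPM with sh-NC and at 32.6 and 33.5 CPM with sh-IRF2BP2, with an adjusted p of 0.0565 for a log2 fold change of 0.47 by edgeR with Benjamini-Hochberg adjustment. The mouse gene at the lower end was Eif4a3, at 125, 161 and 114 CPM in controls and 114 and 108 CPM in knockouts (log2 fold change -0.27).

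The RNA of the helicase paralogs stood in different proportion in J.gamma1 cells and in mouse T cells. Per kilobase, EIF4A2 was 0.421 and 0.452 times EIF4A1 in the sh-NC libraries and 0.321 and 0.446 times in the sh-IRF2BP2 libraries. Mouse Eif4a2 was 1.235, 0.978 and 1.495 times Eif4a1 in controls 1, 2 and 3, and 1.11 and 1.26 times in the knockouts. Neither table separated its groups. Every 100-base window of EIF4A1 occurs in transcripts of other genes, chiefly a gene annotated as non-coding (ENSG00000264772) at 26.7 to 64.1 CPM, and 60.8% of those of mouse Eif4a1 occur in the pseudogene Eif4a-ps4, so these levels are uncertain.

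The sh-IRF2BP2 libraries did not overlap the sh-NC libraries for any of the 4 genes of the 4E-binding group in J.gamma1 cells, with 3 lower and 1 higher and 0 called. Over all genes tested, 28.7% lay lower and 29.6% higher without overlap. EIF4EBP1, an inhibitor of eIF4E that mTOR phosphorylates, was at 29.3 and 26.7 CPM with sh-NC and at 20.6 and 19.0 CPM with sh-IRF2BP2. EIF4EBP2, its paralog, was at 215 and 204 CPM with sh-NC and at 277 and 266 CPM with sh-IRF2BP2. The log2 fold changes were -0.50 and 0.37, and neither passed the test (adjusted p = 0.0666 and 0.0833, edgeR, Benjamini-Hochberg). EIF4EBP1 was called with DESeq2, with upper-quartile scaling and without sh-NC 2. The level per kilobase of EIF4EBP2 was 0.812 and 0.844 times that of EIF4EBP1 with sh-NC and 1.48 and 1.54 times with sh-IRF2BP2. These ratios were not tested, and they rest on annotated transcripts of 7491 and 827 bases, since in CPM EIF4EBP2 lay above EIF4EBP1 in every library. EIF4EBP1 against the cap-binding EIF4E itself was 0.671 and 0.646 with sh-NC and 0.437 and 0.433 with sh-IRF2BP2. EIF4EBP3 had the lowest log2 fold change of all tested members, -1.24, from 23 and 28 counts with sh-NC and 10 and 12 counts with sh-IRF2BP2. It did not pass the test, with a 95% interval of -2.44 to -0.052, and 69.2% of its windows occur in the read-through gene ANKHD1-EIF4EBP3.

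**Figure D5:**
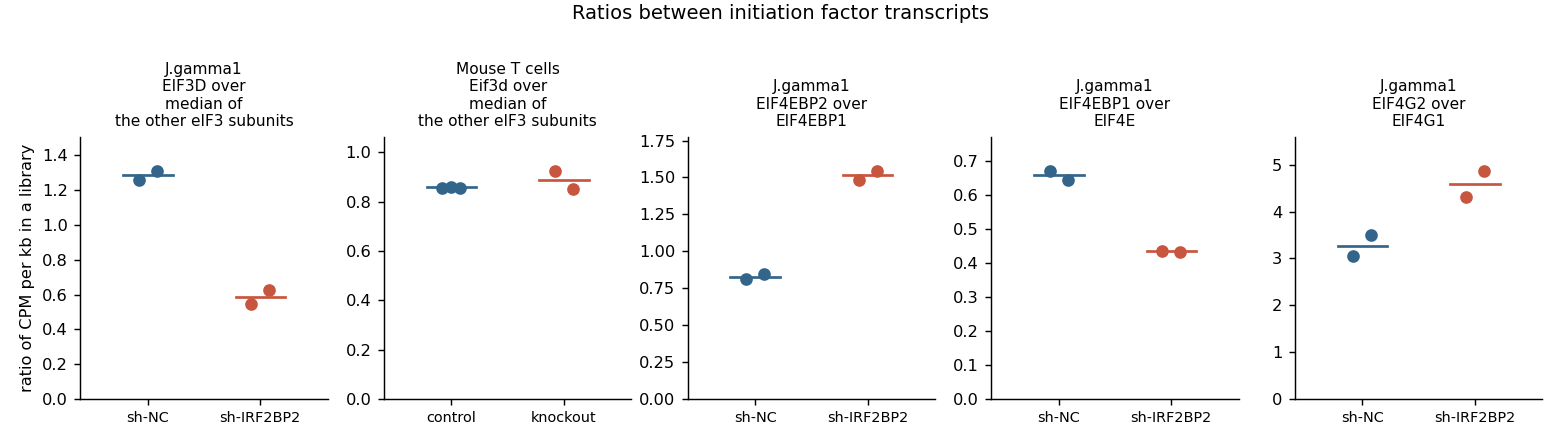
Ratios of CPM per kilobase within each library (vertical axes from 0), with 1 point per library and a bar at the group mean. The eIF3 medians leave out EIF3CL and Eif3j2. EIF3D over the median of the other eIF3 genes falls from 1.26 and 1.31 to 0.544 and 0.625 in J.gamma1 cells and is 0.853 to 0.924 in mouse T cells, EIF4EBP2 over EIF4EBP1 goes from 0.812 and 0.844 to 1.48 and 1.54, and EIF4EBP1 over EIF4E and EIF4G2 over EIF4G1 also do not overlap.

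In mouse T cells the libraries overlapped for 3 of the 4 genes, and for Eif4enif1, an eIF4E transporter, the knockouts at 107 and 114 CPM lay above the controls at 87.8 to 102 CPM (log2 fold change 0.24, not called). Of all genes tested in the mouse, 18.2% lay above all controls. Eif4ebp1 was at 6.10, 13.9 and 6.01 CPM in controls and at 13.1 and 13.1 CPM in knockouts, so that control 2 lay with the knockouts. Without control 2 the gene was called higher, with an adjusted p of 0.0406 (edgeR, Benjamini-Hochberg). In that fit 594 of all genes were called higher, against 412 with all libraries. With all libraries the log2 fold change of Eif4ebp1 was 0.59 (95% interval -0.37 to 1.54). Eif4ebp2 was at 121, 82.9 and 144 CPM in controls and at 122 and 129 CPM in knockouts. Eif4ebp3 had 16 to 97 counts per library and a log2 fold change of 0.96 that turned to -0.97 without knockout 2.

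The small start-codon factors of the EIF1 family differed little. EIF1B was at 43.9 and 52.4 CPM with sh-NC and at 40.7 and 42.4 CPM with sh-IRF2BP2 (log2 fold change -0.21), and EIF1AX was highest with 0.14 and overlapping libraries. Mouse Eif1b was again lowest, at 38.8, 46.6 and 38.3 CPM in controls and 34.7 and 30.3 CPM in knockouts. Its log2 fold change of -0.35 had a 95% interval of -0.72 to 0.024.

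Among the late factors, EIF6, which keeps the large subunit from joining early, was at 82.6 and 95.7 CPM with sh-NC and at 77.5 and 70.4 CPM with sh-IRF2BP2. Eif6 was at 76.5, 97.0 and 80.8 CPM in controls and at 67.8 and 74.3 CPM in knockouts. The log2 fold changes were -0.27 and -0.26, both from libraries that did not overlap, and neither passed the test. EIF5A overlapped between groups, and its paralog EIF5A2 was at 25.5 and 20.1 CPM with sh-NC and at 33.3 and 25.1 CPM with sh-IRF2BP2. Mouse Eif5a2 was at 12.5, 7.14 and 8.88 CPM in controls and at 16.4 and 15.1 CPM in knockouts. The log2 fold change was 0.73 (SE 0.272), with an unadjusted p of 0.0327 and an adjusted p of 0.255 by edgeR with Benjamini-Hochberg adjustment. Eif5a itself was at 469, 581 and 405 CPM against 477 and 472 CPM, so that Eif5a2 remained the minor paralog in every library.

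Of the 51 ortholog pairs tested in both tables, 18 overlapped between groups in each table. In 6 pairs the treated libraries lay below the controls in both, in 0 pairs above in both, and in 5 pairs they lay apart in opposite directions. Over the 9900 genes tested under the same symbol in both tables, these shares were 7.06%, 5.38% and 10.9%, and 23.4% overlapped in each. The tables share no samples.

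The other genes of the pathway were read from lists by role. None of the 18 elongation and termination factors and none of the 19 other initiation cofactors was called in J.gamma1 cells. Among the cofactors, MCTS1 had an adjusted p of 0.0440 (edgeR, Benjamini-Hochberg), but its log2 fold change of -0.49 missed the fold threshold. Over all genes tested, 5.01% were called lower and 5.46% higher there, so few calls would be found in lists of this length. Among 14 tested regulators of initiation factors, AKT1S1, an inhibitory partner of mTOR complex 1, rose by a log2 fold change of 0.87 (adjusted p = 0.00965, edgeR, Benjamini-Hochberg). DHPS, the enzyme that starts hypusine formation on eIF5A, went from 117 ± 16.7 to 76.5 ± 0.209 CPM (log2 fold change -0.62). RPS6KB1, the S6 kinase that phosphorylates eIF4B, went from 94.0 ± 8.19 to 58.9 ± 1.06 CPM (log2 fold change -0.67), and both fell past the test (adjusted p = 0.0257 and 0.0130, edgeR, Benjamini-Hochberg).

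Among 19 tested targets of the integrated stress response, the transcriptional program downstream of eIF2 phosphorylation, 3 fell and 0 rose in J.gamma1 cells, where 5.01% and 5.46% of all genes tested were called. The median over the list was -0.45 on the log2 scale, with 12 targets below 0 and 7 above, among them DDIT4 at 0.55 and SLC7A11 at 0.51, neither of which passed the test. The 3 that fell were the alanyl-tRNA synthetase AARS1 (-0.66) and PHGDH (-0.86) and PSAT1 (-0.85), enzymes of serine synthesis. PHGDH was at 179 ± 15.2 CPM with sh-NC and at 98.6 ± 7.59 CPM with sh-IRF2BP2 (SD, n = 2). In mouse T cells, where 2.68% of all genes tested were called higher, 1 of 18 such targets rose. It was Asns, asparagine synthetase, which went from 4.80 ± 2.05 to 31.8 ± 1.21 CPM, a log2 fold change of 2.71. Of the 19 initiation cofactors Pabpc4, a poly(A)-binding protein, rose from 115 ± 5.10 to 219 ± 7.52 CPM, a log2 fold change of 0.93. The adjusted p were 0.0144 for Asns and 0.0139 for Pabpc4 by edgeR with Benjamini-Hochberg adjustment. None of the mouse elongation and termination factors or regulators was called. With a library left out, the genes called lower in these lists in J.gamma1 cells numbered 2 to 11, the fewest without sh-IRF2BP2 2, and those called higher in the mouse numbered 0 without control 1, knockout 1 or knockout 2.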

How the data were processed

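RNA-seq was made with TRIzol extraction and an Illumina TruSeq kit. Per the labels' processing notes, the authors aligned reads with HISAT2 2.2.0 to hg38 or mm10 and estimated abundance with StringTie, and they deposited whole-number counts, not normalized, for each Ensembl gene in each library. How coverage became counts, and whether strand was used, is not given in the sources used here, so overlapping genes on opposite strands may share reads.

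Rows were limited to annotated genes (GENCODE 44 and M21), filtered (filterByExpr), TMM-scaled and fitted by the quasi-likelihood functions glmQLFit and glmQLFTest of edgeR 4.0.16 in R 4.3.3, separately per table, with condition as the sole term. CPM uses TMM-scaled library sizes. SD is over the libraries of a group. Levels per kilobase use the canonical (human) or principal (mouse) transcript, and a library's 3 counts set the floor, which covers counting error only. Replicates differed by more than sampling noise (chi-square per gene of 20.1 or more), and libraries were kept as separate replicates. The script was tested on simulated counts.

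The members and lists were chosen with earlier results of these data known. Genes named are called members with their orthologs, the lowest and highest of each factor group, set paralog pairs, EIF3D, and called genes of the lists. EIF2S1, EIF2S2, EIF2S3, EIF3A, EIF3F, EIF3K, EIF3L, EIF3M, EIF4E, EIF4E3, EIF4EBP1, EIF4ENIF1, EIF4E2, EIF4G1, APOL1 and the other neighbours of EIF3D, DDIT4, SLC7A11, their mouse orthologs and Eif2ak1 were chosen after their values were seen, as were the sequence features. MCTS1 was likewise chosen after its values were seen. Coordinates of human windows are hg38, and mouse windows are RefSeq promoters of GRCm38.p6. As alternatives, results were recomputed with DESeq2 1.42.0, with upper-quartile or RLE scaling, other count filters, counts divided by 2, all rows, summed copies, other fold thresholds, a replicate block and each library left out. The protein sequences were not used here.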

Additional observations from a re-analysis of the deposited data

Results flagged for a closer look

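In 5 of 51 ortholog pairs every treated library lay on one side of the controls in J.gamma1 cells and on the other side in mouse T cells. Over the 9900 genes tested under the same symbol in both tables, 10.9% did so. The difference between the tables was not tested, and no gene of the 5 pairs passed the test in either table. EIF2AK1 had a log2 fold change of -0.31 and Eif2ak1 of 0.36, EIF2B3 of -0.52 and Eif2b3 of 0.19, EIF2S2 of -0.33 and Eif2s2 of 0.22, EIF4ENIF1 of -0.26 and Eif4enif1 of 0.24, and EIF4E2, a cap-binding relative of EIF4E, of 0.14 and Eif4e2 of -0.12.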

How the results depend on the processing

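EIF3D was called lower in J.gamma1 cells in all 15 alternatives run, with a log2 fold change of -1.29 to -1.09. The other fold thresholds reuse the main fit. The number of members called lower, 1, became 3 with DESeq2 (EIF2B3 and EIF4EBP1 added), 3 with upper-quartile scaling (EIF3C and EIF4EBP1 added), 2 with the replicate block (EIF2B3 added) and 1 to 4 with a library left out, and the number called higher became 0 to 1. Without sh-NC 1 the calls were EIF2B3, EIF2D, EIF3D and EIF3F lower and EIF4G2 higher, and without sh-NC 2 they were EIF3D and EIF4EBP1 lower. In the mouse table the count higher was 0 to 1 with a library left out, the call being Eif4ebp1 without control 2. When an arm has 1 library left, it is assumed to vary like the other arm. The other pathway genes called lower in J.gamma1 cells, 5, became 8 (DESeq2), 12 (upper quartile), 10 (at least 10 counts in every library), 10 (counts divided by 2), 10 (block), 0 (fold threshold of 1) and 2 to 11 with a library left out. Those called higher, 1, became 3 (block), 0 (fold threshold of 1) and 1 to 4. In the mouse the 2 called higher became 5 (DESeq2), 4 (at least 10 counts), 1 (fold threshold of 1) and 0 to 4, with 0 without control 1, knockout 1 or knockout 2. Over all genes, calls went from 1657 to 1982 with DESeq2 and 2467 with the block in J.gamma1 cells, and from 435 to 1141 and 485 in the mouse. Upper-quartile scaling called 946 lower and 722 higher in J.gamma1 cells, against 793 and 864. The genes called lower there numbered 890 with at least 10 counts and 903 with counts divided by 2. Calls over all genes also rose without sh-NC 1 or sh-NC 2. Without control 2, 594 mouse genes were called higher, against 412. Libraries with the same number correlated at 0.336 and 0.114, over only 2 pairs, so the block rests on the number alone.

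Signs turned for EIF2AK2 (-0.017) and EIF5A (-0.013) with upper-quartile scaling, for Eif3c (0.011), Eif3d (0.0053), Eif4a1 (0.017) and Eif5a (0.014) with at least 10 counts, and for Eif3c (0.036) and Eif4a2 (0.078) with the block. With a library left out, signs turned for EIF1AX (-0.061 to 0.32), EIF2AK2 (-0.24 to 0.36), EIF2B4 (-0.10 to 0.19), EIF3J (-0.093 to 0.30), EIF4A1 (-0.063 to 0.26), EIF5A (-0.15 to 0.19), Eif2ak3 (-0.093 to 0.053), Eif3c (-0.10 to 0.033), Eif3d (-0.094 to 0.068), Eif4a1 (-0.11 to 0.065), Eif4a2 (-0.26 to 0.086), Eif4ebp2 (-0.062 to 0.29), Eif4ebp3 (-0.97 to 1.73) and Eif5a (-0.15 to 0.14). The cause was not tested. With 2 or 3 libraries in a group, a miss of the threshold does not show that a gene did not differ.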
